A study of Mus musculus with 7 samples.

Results

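Genes of the cell cycle and of DNA replication were measured in mouse liver after knockout of the histone deacetylase HDAC3 and in liver in which HDAC3 had been put back. The set holds 37 listed genes, chosen by name: G1 cyclins and their kinases, kinase inhibitors, E2F factors, origin licensing factors, nucleotide synthesis enzymes and the G2 and mitotic machinery. Of these, 35 were read on the arrays, among 19933 genes in all, each on its brightest probe set annotated with exactly 1 gene symbol. The inhibitor gene Cdkn1a and the mitotic cyclin gene Ccnb1 had no such probe set and are not analysed here.

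The HDAC3 knockout group comprised 3 livers from mice injected with an adeno-associated virus (AAV) for Cre recombinase, AAV-Cre. The rescued group comprised 4 livers from mice injected with AAV-Cre together with AAV-Flag-HDAC3, a second vector for wild-type HDAC3 that carries a Flag tag. All 7 mice were C57BL/6 males aged 4 months, fed ad libitum on normal chow, and were killed 2 weeks after injection at 5 pm (ZT10, 10 h into the light phase), with 1 array per liver. Every mouse therefore received Cre, the groups also differ by the second vector, and neither the Hdac3 allele that Cre acts on nor the promoter that drives Cre is given in the sources used here. The titles of the rescued arrays name them WT.

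Cells enter the cycle when cyclin D with CDK4 or CDK6, and then cyclin E with CDK2, phosphorylate the retinoblastoma protein and release E2F factors, which switch on the genes of DNA synthesis. Origins are licensed by loading of the MCM helicase, and a later wave of genes led by FOXM1 and B-MYB supplies the kinases and motor proteins of mitosis. Most hepatocytes of an adult mouse are quiescent and many are polyploid, and they re-enter the cycle after loss of liver tissue. In bulk liver, a transcript made by few cells and one made at a low level by many cells cannot be told apart.

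Values are log2 intensities as deposited, given as mean ± SD (n = 3 knockout and n = 4 rescued throughout), and differences are knockout minus rescued. A gene is said to be called at an adjusted p under 0.05 in limma's moderated test, with Benjamini-Hochberg adjustment over all genes. The labels call the arrays biological replicates. Hdac3 itself was at 8.93, 8.75 and 9.07 in the knockout livers, against 9.23, 9.45, 9.55 and 9.38 in the rescued livers, a difference of -0.48 (SE 0.10, adjusted p = 0.0124). With knockout replicate 1 left out, the Hdac3 difference was -0.49 and no longer called (adjusted p = 0.050013), and whether its probe set also reads the vector transcript was not tested. All 8 hepatocyte markers were measured above background, with Alb at 13.80 ± 0.03 in knockout and 13.75 ± 0.04 in rescued livers, and none of the 8 was called.

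Low signals were offset between the groups, and this bears on the many dim genes of the set. The median intensity of an array was 105 to 111 in the knockout group, against 96.3 to 102 in the rescued group. The median difference was 0.14 over genes at or below the median level and 0.00 above it. Of the 1190 olfactory and vomeronasal receptor genes, which serve here as a measure of background, 1071 had a difference above 0, with a median of 0.12. Most of them are taken to be silent in liver, but the highest group means among them were 9.20 in the knockout and 8.77 in the rescued group. Among all called genes 66.3% were higher in the knockout livers, and this share was 42.3% with quantile normalization, 41.6% with cyclic loess and 19.3% when arrays were centred on their medians. A gene is called near background where its mean lay at or below the 95th percentile of the receptor genes (6.30 in the knockout and 6.14 in the rescued group), and no fold is given for it.

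Of the 35 measured cell cycle genes, 6 were called, 3 higher and 3 lower in the knockout livers. The lower genes were the G1 kinase gene Cdk4, the ribonucleotide reductase gene Rrm2 and the cyclin gene Ccne2, and the higher genes were the helicase gene Mcm2, the mitotic kinase gene Plk1 and the topoisomerase gene Top2a. The share called was 17.1% of the set, against a background of 14.4% of all genes tested, of which 9.54% were higher and 4.85% lower. The median difference of the set was 0.04, beside 0.09 over all genes. No member differed by 1.5-fold. Over all 19933 genes tested, 320 were called and reached this size. For 31 of the 35 members the 95% interval of the difference, not corrected for multiple tests, lay within 1.5-fold in either direction. The exceptions were Ccnd1, Ccne2, Rrm2 and Plk1. The share of all genes with such an interval was not computed. These sizes are of array signal, and for the 10 members near background they set no limit on a change of transcript.

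The 3 falls and the 3 rises differed in how they held under other scalings. Cdk4, Rrm2 and Ccne2 were called lower as deposited and after each of the 3 rescalings, as were 4.30% of all genes. Mcm2, Plk1 and Top2a were called higher as deposited and after none of the 3 rescalings, and no other member was called higher in all 4. Over all genes 2.30% were called higher in all 4. After cyclic loess the median difference of the set was -0.03, beside 0.00 over all genes, so the direction of the median changed with the scaling.

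**Figure D1:**
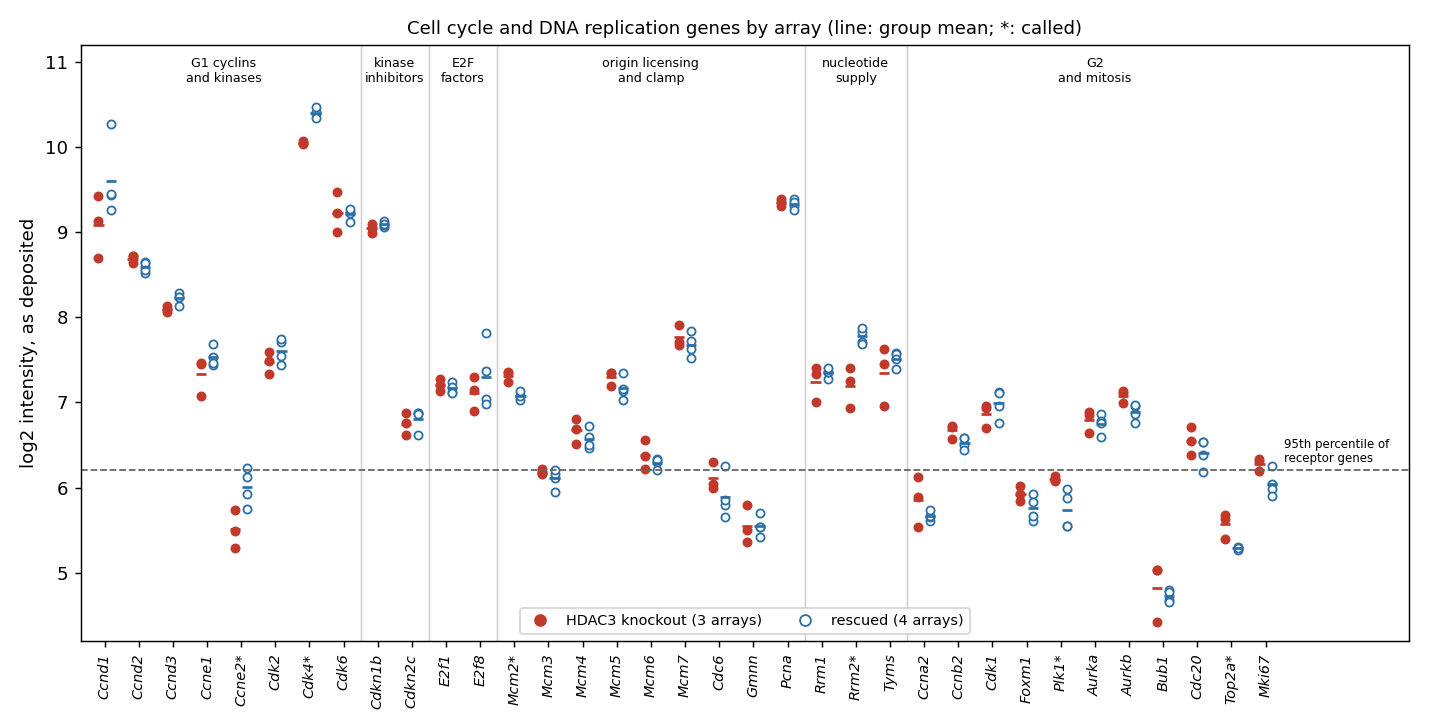
Log2 intensity as deposited (vertical axis) of the 35 measured members (horizontal axis, grouped by role), with 1 point per array, filled for the 3 knockout and open for the 4 rescued arrays, and a line at each group mean. Asterisks mark called members, and the dashed line is the 95th percentile of receptor genes over all arrays. The arrays of Cdk4, Rrm2 and Mcm2 separate by group above this line, while Ccne2, Plk1 and Top2a lie mostly or wholly below it.

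Promoter windows are shown for 5 of the 6 called members, because the cell cycle genes are classically grouped by short promoter elements. Each window runs from 250 bases before to 50 bases after an annotated start site in RefSeq (build GRCm38.p6), and Ccne2 had no entry. Capitals mark matches to the CHR element (TTTGAA), bound in mitotic genes by the complexes that hold B-MYB, and to the CCAAT box (CCAAT), bound by NF-Y, on either strand (reversed, they read TTCAAA and ATTGG). The E2F words TTTCGCGC, TTTGGCGC and TTTCCCGC were also searched and had no match in these 5 windows. The falling members come first, Cdk4 (chr10:127063285-127063584, plus strand) and Rrm2 (chr12:24708004-24708303, plus strand), followed by Mcm2 (chr6:88898731-88899030, minus strand), Plk1 (chr7:122159185-122159484, plus strand) and Top2a (chr11:99024140-99024439, minus strand).
Cdk4: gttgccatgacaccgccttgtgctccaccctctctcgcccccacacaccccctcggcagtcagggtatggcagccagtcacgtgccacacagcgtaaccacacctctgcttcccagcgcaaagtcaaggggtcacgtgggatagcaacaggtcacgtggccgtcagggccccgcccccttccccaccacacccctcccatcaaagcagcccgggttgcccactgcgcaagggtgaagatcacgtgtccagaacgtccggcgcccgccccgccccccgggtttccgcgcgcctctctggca
Rrm2: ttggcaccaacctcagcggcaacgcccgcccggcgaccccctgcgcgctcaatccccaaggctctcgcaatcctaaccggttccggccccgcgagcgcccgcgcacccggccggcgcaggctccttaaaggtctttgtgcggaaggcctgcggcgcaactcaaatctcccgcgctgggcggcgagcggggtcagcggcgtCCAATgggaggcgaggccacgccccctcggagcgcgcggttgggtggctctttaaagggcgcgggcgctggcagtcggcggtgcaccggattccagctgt
Mcm2: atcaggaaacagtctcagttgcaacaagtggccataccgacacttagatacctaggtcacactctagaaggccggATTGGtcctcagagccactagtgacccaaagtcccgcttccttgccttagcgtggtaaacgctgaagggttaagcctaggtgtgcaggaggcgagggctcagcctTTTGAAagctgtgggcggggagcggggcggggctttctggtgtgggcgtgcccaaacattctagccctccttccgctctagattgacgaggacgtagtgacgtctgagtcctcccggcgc
Plk1: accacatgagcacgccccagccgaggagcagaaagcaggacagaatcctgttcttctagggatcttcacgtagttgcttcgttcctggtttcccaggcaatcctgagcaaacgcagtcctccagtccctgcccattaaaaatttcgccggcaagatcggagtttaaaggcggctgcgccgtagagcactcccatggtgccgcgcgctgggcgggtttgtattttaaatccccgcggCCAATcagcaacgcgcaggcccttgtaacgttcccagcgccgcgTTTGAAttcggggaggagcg
Top2a: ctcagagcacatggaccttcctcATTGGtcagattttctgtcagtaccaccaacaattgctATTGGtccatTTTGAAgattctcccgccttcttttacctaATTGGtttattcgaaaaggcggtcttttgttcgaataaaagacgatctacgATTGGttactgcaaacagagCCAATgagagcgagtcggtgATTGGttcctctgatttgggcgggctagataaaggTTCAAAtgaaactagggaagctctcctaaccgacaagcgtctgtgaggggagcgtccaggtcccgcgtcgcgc

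The Cdk4 window held none of these words, and the Rrm2 window held a single CCAAT box that begins 50 bases before the start site. The windows of Mcm2, Plk1 and Top2a each held at least 1 CHR match and at least 1 CCAAT box. The CHR match of Plk1 begins 30 bases after the start site. Among the 29 members with a window, called or not, 9 held a CHR match and 22 a CCAAT box. Uncalled Cdk1 (difference -0.12) and E2f8 (-0.19) were among those with a CHR match. Whether the matches bear on the differences was not tested. The Top2a window carried 6 CCAAT boxes and 2 CHR matches, of which 1 begins 23 bases before the start. Across the set, 29 of the 37 listed genes had a window, 33 windows in all. A CHR match was present in 7 of 9 G2 and mitosis genes, against 20.2% of all 27025 genes with a window, and a CCAAT box in 9 of 9, against 41.1%. An E2F word was present in 5 of 7 origin licensing genes, against 2.12% of all genes. Over the member windows 1 match overlapped a match of another motif, and 2 pairs of E2F words overlapped each other. These are matches of letters, not shown sites, and the members that carry them were chosen by name.

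**Figure D2:**
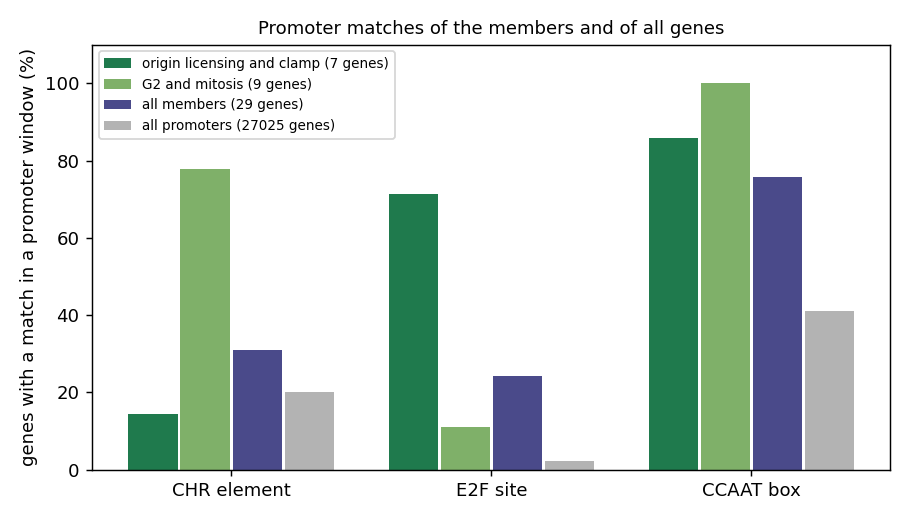
Share of genes (vertical axis, percent) with at least 1 exact match to each element in a promoter window, for 7 origin licensing genes, 9 G2 and mitosis genes, all 29 members with a window and all 27025 genes. CHR matches stand out in the mitotic genes, where 7 of 9 have one, and E2F words in the licensing genes, where 5 of 7 have one.

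Among the 8 genes of the G1 cyclins and kinases, 2 were called, both lower, 25% against 14.4% of all genes called. Of all genes 4.85% were called lower, and 8.73% of those above the median level, where 7 of the 8 lay. Of the 8 differences 6 lay below 0, against 6274 of 19933 over all genes. Above the median level the median difference of all genes was 0.00. Cdk4, whose product pairs with D cyclins to phosphorylate the retinoblastoma protein, was at 10.04, 10.06 and 10.04 in knockout livers, against 10.38, 10.41, 10.34 and 10.47 in rescued livers. The highest knockout array lay below the lowest rescued array, and values within each group lay close together. Cdk4 was 1.28-fold lower (difference -0.36, SE 0.06, adjusted p = 0.00817 in limma's test). It was called under all 19 alternatives, with adjusted p from 0.00195 to 0.0321. Ccne2, which encodes cyclin E2, an activator of CDK2 at the start of S phase, was at 5.49, 5.74 and 5.30 in knockout livers, against 5.93, 6.12, 6.23 and 5.75 in rescued livers. The groups did not overlap, but the highest knockout value and the lowest rescued value nearly met. The difference was -0.50 (SE 0.13, adjusted p = 0.0296 in limma's test), near background in both groups. Ccne2 was not called once any of knockout replicates 1 and 3 or rescued replicates 2 and 3 was left out. Over the arrays left out in turn, its difference ranged from -0.61 to -0.39, with adjusted p up to 0.101.

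Ccnd1, which encodes cyclin D1, the D cyclin that mitogens induce in hepatocytes, had the widest interval of the set. Its level was 9.12, 9.43 and 8.69 in knockout livers, against 9.43, 9.45, 9.26 and 10.27 in rescued livers. Rescued replicate 4 stood above the rest, and the groups overlapped. The difference was -0.52 (95% interval -1.01 to -0.03) and was not called, with adjusted p = 0.124 in limma's test. Without rescued replicate 4 it was -0.30. The other G1 genes were not called either. Ccnd2 differed by 0.10. Ccnd3 differed by -0.13 and was called, lower, only after median centring (-0.25, adjusted p = 0.0469 in limma's test). Cyclin E1 (Ccne1) differed by -0.20, Cdk2 by -0.14 and Cdk6, the other kinase partner of D cyclins, by 0.01 with an interval from -0.21 to 0.24.

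The 2 measured inhibitor genes showed small differences. Cdkn1b, which encodes the CDK inhibitor p27, averaged 9.04 ± 0.06 in knockout livers and 9.09 ± 0.03 in rescued livers, with an interval of the difference from -0.19 to 0.09. Cdkn2c, which encodes p18, an inhibitor of CDK4 and CDK6, averaged 6.75 ± 0.13 in knockout livers and 6.81 ± 0.13 in rescued livers. Of the E2F factors, E2f1, an activator of S phase genes, differed by 0.04 (interval -0.11 to 0.19). E2f8, an atypical repressor of the family that takes part in hepatocyte polyploidy, was at 7.14, 6.90 and 7.30 in knockout livers, against 7.04, 6.98, 7.37 and 7.82 in rescued livers. Rescued replicate 4 was again the highest array, and E2f8 was not called (difference -0.19, adjusted p = 0.441 in limma's test).

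**Figure D3:**
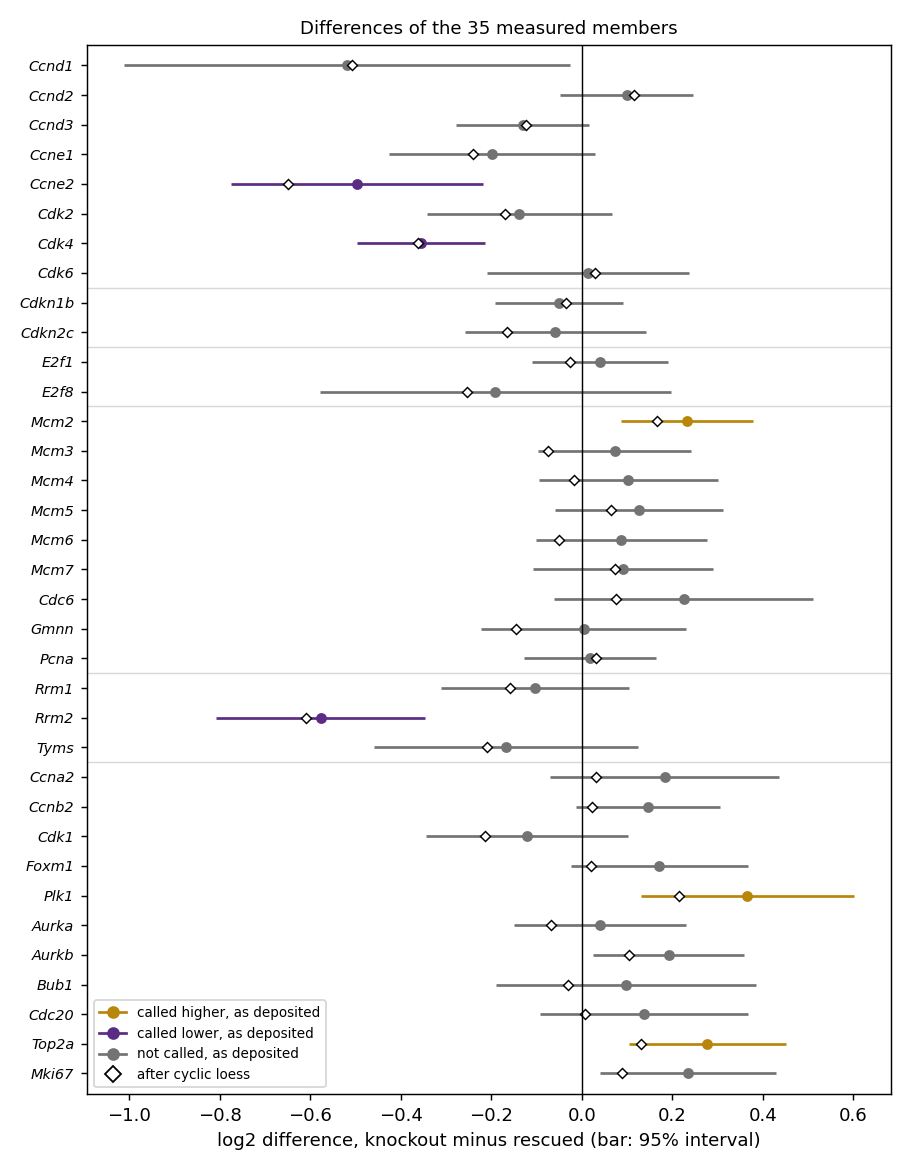
Log2 difference, knockout minus rescued (horizontal axis), of the 35 measured members (vertical axis, ordered by role), as filled circles with 95% intervals for the values as deposited and as open diamonds after cyclic loess. The diamonds of the falling members Cdk4 and Rrm2 lie on or near their circles (-0.36 and -0.61), while those of Mcm2, Plk1 and Top2a lie closer to 0 than their circles.

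All 9 genes of origin licensing and the replication clamp had differences above 0 as deposited, as did 13659 of all 19933 genes. Of the 9, 1 was called. After cyclic loess 4 of the 9 lay below 0, so their common direction did not hold. Mcm2, a subunit of the replicative helicase, was at 7.24, 7.35 and 7.34 in knockout livers, against 7.08, 7.03, 7.08 and 7.13 in rescued livers. The groups did not overlap. The difference was 0.23 (SE 0.07), 1.18-fold higher, with adjusted p = 0.0417 in limma's test. The call was lost on leaving out any of the 7 arrays, with differences from 0.21 to 0.27, and after each rescaling, with differences of 0.17 (quantile normalization), 0.12 (median centring) and 0.17 (cyclic loess). The other helicase genes Mcm3, Mcm4, Mcm5, Mcm6 and Mcm7 differed by 0.07 to 0.13, none called, and their intervals reached no further than 0.31. Cdc6, which loads the helicase, averaged 6.11 ± 0.17 in knockout livers and 5.89 ± 0.26 in rescued livers, near background, and was called only without rescued replicate 1 (0.35, adjusted p = 0.0408 in limma's test). Gmnn, which encodes geminin, the inhibitor of licensing, was near background with an interval of the difference from -0.22 to 0.23. Pcna, the sliding clamp of the polymerases, averaged 9.34 ± 0.04 in knockout livers and 9.33 ± 0.06 in rescued livers, with an interval from -0.13 to 0.16.

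The 3 genes of nucleotide supply all had differences below 0, as deposited and after cyclic loess. Over all genes 6274 of 19933 lay below 0 as deposited. The 3 genes were above the median level, where the median difference was 0.00. Of the 3, 1 was called (33.3%, against 14.4% of all genes). Rrm2 encodes the small subunit of ribonucleotide reductase, which is made in S phase and limits the supply of deoxynucleotides. It was at 7.40, 7.25 and 6.93 in knockout livers, against 7.83, 7.71, 7.69 and 7.88 in rescued livers. The groups were apart, with knockout replicate 3 the lowest array. The difference of -0.58 (SE 0.11, adjusted p = 0.00836 in limma's test) was the largest of the set and made Rrm2 1.49-fold lower. Rrm2 was called under all 19 alternatives, with differences from -0.69 to -0.45. The large subunit gene Rrm1 differed by -0.10 and was not called (interval -0.31 to 0.10). Tyms, which encodes thymidylate synthase, was at 6.96, 7.63 and 7.45 in knockout livers, against 7.39, 7.58, 7.57 and 7.52 in rescued livers. Knockout replicate 1 was the low array, and without it the difference was 0.03, against -0.17 with all arrays.

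Of the 11 measured G2 and mitosis genes, 2 were called higher and none lower, 18.2% against 14.4% of all genes called. As deposited 10 of 11 differences lay above 0, against 13659 of 19933 over all genes. Only 2 of the 11 lay above the median level, and 8674 of the 9967 genes at or below it had differences above 0. After cyclic loess 8 of 11 lay above 0, with a median of 0.02, against 0.17 as deposited, and none was called. Among these genes 6 were near background in both groups. Plk1, the polo-like kinase of mitotic entry and spindle assembly, was at 6.08, 6.09 and 6.14 in knockout livers, against 5.55, 5.87, 5.56 and 5.98 in rescued livers. The difference was 0.37 (SE 0.11, adjusted p = 0.0446 in limma's test), near background. The call was kept on leaving out rescued replicate 4 and lost on leaving out any of the other 6 arrays. Over all 7 arrays left out in turn the difference ranged from 0.30 to 0.45, the highest being without rescued replicate 4. Top2a, which encodes topoisomerase II alpha, the enzyme that untangles sister chromatids, was at 5.63, 5.68 and 5.39 in knockout livers, against 5.29, 5.30, 5.27 and 5.29 in rescued livers. The difference was 0.28 (SE 0.08, adjusted p = 0.0412 in limma's test), and the call was kept without knockout replicate 3 and lost without any of the other 6 arrays. Over all 7 arrays left out in turn the difference ranged from 0.22 to 0.37, the highest being without knockout replicate 3. The Top2a call was also lost with the mean of its probe sets and after each rescaling.

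The proliferation marker Mki67 was at 6.31, 6.33 and 6.20 in knockout livers, against 6.26, 6.05, 5.98 and 5.90 in rescued livers, near background in both groups. The groups overlapped, and the difference of 0.23 was not called (adjusted p = 0.0891 in limma's test). It was called without rescued replicate 1 (0.30, adjusted p = 0.0297 in limma's test), and after cyclic loess it was 0.09. The mitotic cyclin gene Ccnb2 was above background and differed by 0.15 (interval -0.01 to 0.30). Cdk1, the kinase that B cyclins activate, was the 1 gene of this group below 0, at -0.12 (interval -0.34 to 0.10). Aurkb, a kinase of the chromosomal passenger complex, differed by 0.19 with groups that did not overlap, and missed the threshold with adjusted p = 0.102 in limma's test. Aurka, a centrosomal kinase, differed by 0.04 and Cdc20, an activator of the anaphase-promoting complex, by 0.14. Foxm1, the transcription factor of the late wave, Ccna2, which encodes cyclin A2, and the checkpoint kinase gene Bub1 were near background with differences of 0.17, 0.18 and 0.10. Ccna2 and Bub1 were called without knockout replicate 3 (0.34 and 0.30, adjusted p = 0.0361 and 0.0332 in limma's test), their lowest array in that group.

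**Figure D4:**
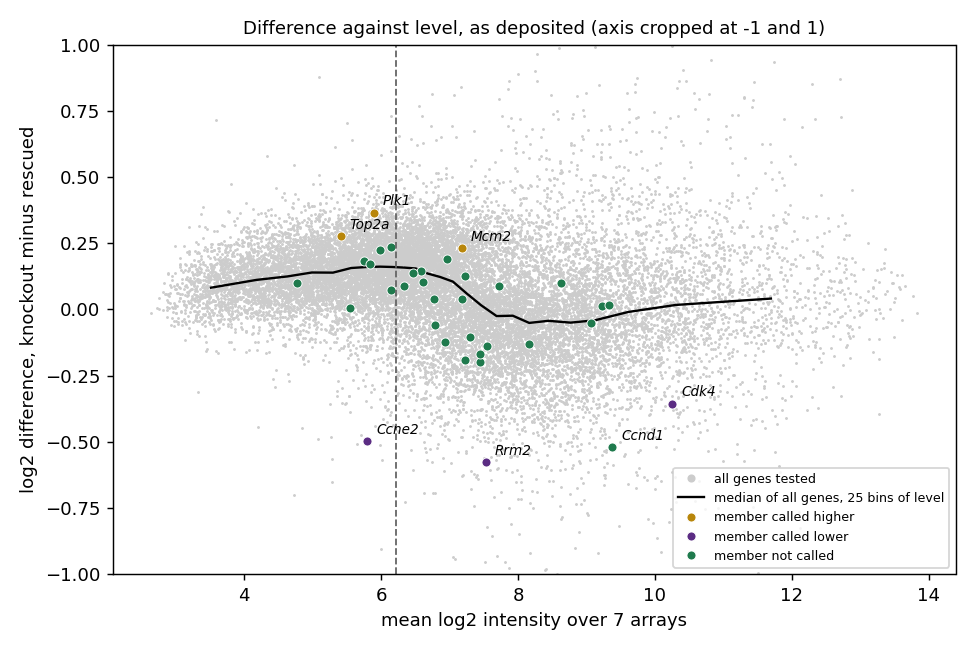
Log2 difference, knockout minus rescued (vertical axis, cropped at -1 and 1), against the mean log2 intensity over 7 arrays (horizontal axis), for all 19933 genes in grey and the 35 members in colour. The black line is the median of all genes along the level and the dashed line the 95th percentile of receptor genes. Plk1 and Top2a lie in the dim range where the line itself is above 0, Mcm2 lies above the median level of all genes, and Cdk4, Rrm2 and Ccne2 lie below the line.

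Of the 35 members, 7 had knockout arrays all above or all below the rescued arrays, as did 29.6% of all genes. Within the set, 25 members were above background in both groups, of which 1 was called higher and 2 lower, and their median difference was 0.01. The 10 members near background were Ccne2, Mcm3, Cdc6, Gmnn, Ccna2, Foxm1, Plk1, Bub1, Top2a and Mki67. Of these 2 were called higher and 1 lower. The differences were above 0 for 9 of the 10, with a median of 0.18 as deposited and 0.03 after cyclic loess. Differences above 0 as deposited were also held by 8674 of the 9967 genes at or below the median level. Among all genes at or below the median level 9.98% were called higher and 0.963% lower, and among those above it 9.09% were called higher and 8.73% lower. Over the members, knockout replicate 2 held the highest value most often (13 of 35), and after cyclic loess rescued replicate 4 did (11 of 35).

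Of 46 measured genes of origins, forks and nucleotide synthesis outside the set, 2 were called higher and 3 lower, 10.9% of them (1 higher and 5 lower after cyclic loess). Mcm10, which loads polymerase alpha at origins, was lower, averaging 8.08 ± 0.06 in knockout livers and 8.52 ± 0.12 in rescued livers (difference -0.43, adjusted p = 0.00933 in limma's test). The nuclease gene Dna2 (-0.42) and the origin recognition gene Orc4 (-0.38) were also lower. Ranges given for these and the following genes are over all 7 arrays left out in turn. The call of Dna2 was kept only without rescued replicate 1 (range -0.52 to -0.32) and that of Orc4 only without knockout replicate 3 or rescued replicate 1 (range -0.46 to -0.32). Lig1, the ligase that joins Okazaki fragments, was higher, averaging 7.11 ± 0.09 in knockout livers and 6.77 ± 0.04 in rescued livers (0.33, adjusted p = 0.0147 in limma's test), but not called with knockout replicate 1 left out (range 0.30 to 0.39). Mcm10, Dna2 and Orc4 were lower and Lig1 higher in every scaling.

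Of 59 further mitosis genes, 5 were called higher and 1 lower, 10.2% of them (1 higher and 3 lower after cyclic loess), and 36 of the 59 were near background in both groups. Spc25, a subunit of the NDC80 complex of the kinetochore, was at 5.77, 6.26 and 5.79 in knockout livers, against 6.64, 6.95, 6.77 and 6.31 in rescued livers. Its difference was -0.73 (SE 0.15, adjusted p = 0.0151 in limma's test). The groups did not overlap. With knockout replicate 1 left out it was not called (range -0.89 to -0.63). The knockout mean was below the receptor limit and the rescued mean above it. Nek2, a centrosomal kinase gene, differed by 0.41 (adjusted p = 0.0064 in limma's test), with its rescued mean below the limit. Spc25 was lower and Nek2 higher in every scaling. Kif23 and Espl1, a motor of cytokinesis and the separase gene, differed by 0.31 each, and neither was called after any of the 3 rescalings. Kif23 was not called when any of knockout replicates 1 and 2 or rescued replicates 2 and 3 was left out (range 0.27 to 0.38), and Espl1 was called only without rescued replicate 1 or 2 (range 0.25 to 0.36).

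Of 31 other G1 and E2F-RB regulators, 2 were called higher and 2 lower (0 higher and 2 lower after cyclic loess). The share called as deposited was 12.9%, against 14.4% of all genes. E2f5, a repressor-type E2F, was lower at 6.44, 6.29 and 6.51 in knockout livers, against 6.77, 6.94, 7.04 and 7.02 in rescued livers. Every knockout array was below every rescued array, with a difference of -0.53 (SE 0.08, adjusted p = 0.00496 in limma's test). Ccnh, the cyclin of the CDK-activating kinase, was also lower (-0.30), with the call lost without rescued replicate 3 (range -0.31 to -0.28). Both were lower in every scaling. Mybl1, a MYB family gene near background, differed by 0.70, and Cdkn2d, which encodes p19, an inhibitor of CDK4 and CDK6, by 0.33. Neither was called after rescaling. Mybl1 was not called when any of knockout replicates 2 and 3 or rescued replicates 2 and 4 was left out (range 0.60 to 0.86), and Cdkn2d was called only without knockout replicate 3 or rescued replicate 1 (range 0.23 to 0.40).

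Among 20 measured p53 target genes, 2 were called higher and none lower, 10% of them. After cyclic loess 1 was called higher and 1 lower, and after median centring 1 higher and 5 lower. Btg2, an antiproliferative gene that is also an immediate early gene, was at 8.36, 8.37 and 8.78 in knockout livers, against 7.34, 7.57, 7.74 and 7.81 in rescued livers. It was 1.85-fold higher with no overlap (difference 0.89, SE 0.13, adjusted p = 0.00285 in limma's test), in every scaling. The death receptor gene Fas differed by 0.41 and was not called after median centring or cyclic loess. It was not called either when any of knockout replicates 2 and 3 or rescued replicates 2 and 4 was left out (range 0.33 to 0.52). Mdm2 and Ccng1, named after their values were seen, differed by 0.03 and -0.16 and were not called. Of 19 measured genes of the DNA damage response and repair 1 was called, 5.26% against 14.4% of all genes. This was Atm, the kinase that responds to double-strand breaks, lower by -0.34 and in every scaling. It was not called when any of knockout replicates 1 and 2 or rescued replicates 2 and 3 was left out (range -0.38 to -0.28).

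Of 11 measured genes of hepatocyte growth signals, 2 were called higher and 1 lower (0 higher and 1 lower after cyclic loess). The share called as deposited was 27.3%, against 14.4% of all genes. Fgfr4, the receptor gene for FGF15 on hepatocytes, was lower, averaging 8.50 ± 0.04 in knockout livers and 8.84 ± 0.09 in rescued livers (-0.34, adjusted p = 0.0145 in limma's test), in every scaling. Stat3, the transducer of interleukin-6, was higher by 0.39 and lost its call on leaving out any of the 7 arrays (range 0.27 to 0.47) and after each rescaling. Hbegf, a ligand of the EGF receptor, was higher by 0.28, was not called after rescaling and kept its call only without knockout replicate 3 or rescued replicate 1 (range 0.21 to 0.32).

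**Figure D5:**
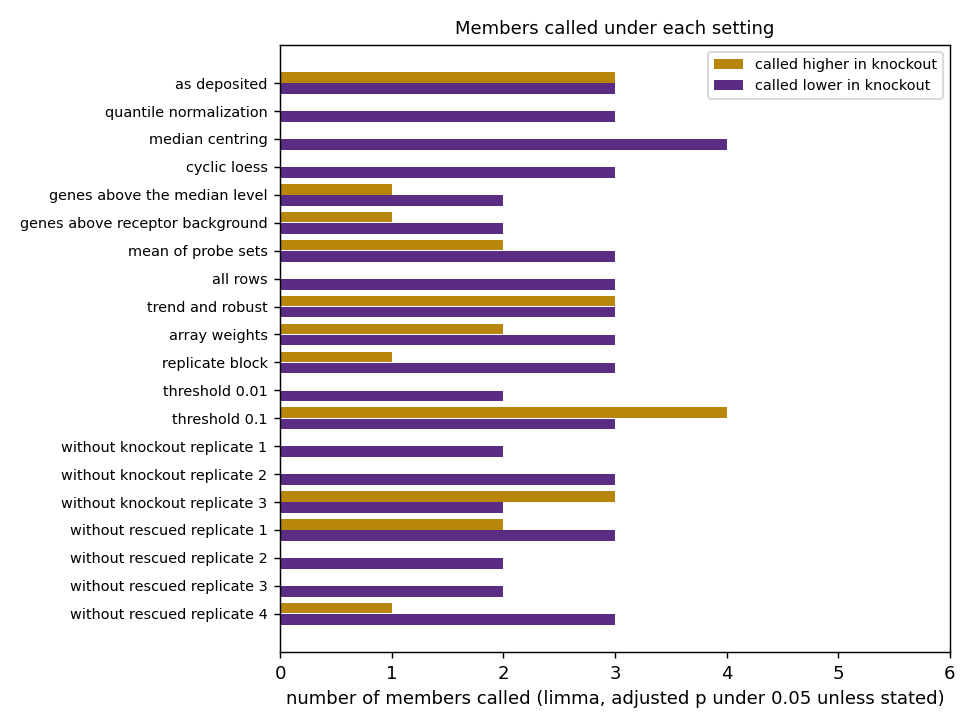
Number of the members called higher and lower in knockout livers (horizontal axis) for the values as deposited and under each of the 19 alternatives (vertical axis). The count of lower members stays between 2 and 4, while the count of higher members ranges from 0 to 4 and is 0 after each of the 3 rescalings.

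Cycling cells in liver can belong to other cell types, and their markers were read on the same arrays. Sums are of linear intensities as deposited over each list. T and NK cell markers (6 of 7 measured, none called) summed to 396 to 432 in knockout and 350 to 387 in rescued livers. Of the 6, 4 were near background, Cd3d and Cd3g among them. Cd3e, the brightest, differed by 0.22 with groups that did not overlap, and by 0.14 after cyclic loess, called in neither. The median difference of the list was 0.18 as deposited and 0.04 after cyclic loess. B and plasma cell markers (5 of 6 measured, none called) summed to 256 to 287 in knockout and 244 to 273 in rescued livers. Cd79a, Ms4a1, Jchain and Pax5 were near background, and the list median was 0.15 as deposited and 0.01 after cyclic loess. Cd79b, the brightest, differed by 0.19, and by 0.07 after cyclic loess. Of 6 neutrophil markers Elane was called higher as deposited (0.27, kept only without knockout replicate 2 or rescued replicate 1) but after none of the 3 rescalings (0.15, 0.16 and 0.14 with quantile normalization, median centring and cyclic loess). The median difference of the list was 0.21 as deposited and 0.07 after cyclic loess, and its sums were 346 to 416 in knockout and 313 to 331 in rescued livers. Kupffer cell and macrophage markers (7 of 7 measured, none called) summed to 2963 to 3275 in knockout and 2306 to 3426 in rescued livers. Their list median was 0.14 as deposited and 0.15 after cyclic loess. Vsig4, the brightest, differed by 0.34 with groups that overlapped, and by 0.35 after cyclic loess, called in neither. Cholangiocyte markers (5 of 6 measured, none called) summed to 533 to 603 in knockout and 463 to 511 in rescued livers. Their list median was 0.10 as deposited and -0.02 after cyclic loess. Sox9, the brightest, differed by 0.31 with groups that did not overlap (adjusted p = 0.0565 in limma's test). The Sox9 difference was 0.31 after cyclic loess and 0.20 after median centring, not called in either. After quantile normalization it was 0.33 and called (adjusted p = 0.0459 in limma's test).

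The 5 measured erythroid markers of 6 summed to 953 to 1039 in knockout livers and 1253 to 1471 in rescued livers. Their median difference was 0.00, and Alas2, the brightest of them, was the only one called lower. Hemgn and Epor differed by 0.15 and -0.06 and were not called. Alas2, the haem synthesis gene of red cell precursors, was at 8.50, 8.17 and 8.56 in knockout livers, against 9.49, 9.47, 9.54 and 9.74 in rescued livers, 2.22-fold lower (adjusted p = 0.000190 in limma's test) and in every scaling. The groups lay far apart. The transferrin receptor gene Tfrc, which hepatocytes also express, was higher by 0.36 and not called when any of knockout replicates 1 and 2 or rescued replicates 2 and 3 was left out (range 0.31 to 0.45) or after median centring (0.25), while Klf1, the defining erythroid factor, differed by 0.00. Of 6 stellate cell markers Lrat was called higher (0.32, kept only without knockout replicate 3, and not called after median centring at 0.20), with sums of 1722 to 1902 in knockout and 1662 to 1772 in rescued livers. Reln, the brightest stellate cell marker, differed by -0.08 and was not called. Of 6 endothelial markers Clec4g was called lower (-0.29, kept only without knockout replicate 2, and not called after cyclic loess at -0.32), with sums of 3944 to 4763 in knockout and 4684 to 4800 in rescued livers. The part of these cell types in the cell cycle results was not tested.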

How the data were processed

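Total RNA of 7 livers was hybridised to Affymetrix Mouse Gene 1.0 ST arrays. The deposited intensity values, linear and between 5.41 and 17351, were made by the authors with RMA and Partek, per the submitters' processing notes, without versions or roles, and which scaling came last is unknown, as is the build, not given in the sources used here. Of 27541 rows, 21631 carried 1 gene symbol, 1317 several and 4593 none, by the platform annotation. Of the single-symbol rows 21544 matched the RefSeq table (GRCm38.p6) by gene ID. Log2 was taken, the brightest row per gene kept (19933 genes), and a model of the groups without covariates fitted by lmFit and eBayes (limma 3.58.1, R 4.3.3, two-sided). No filter on dim genes was applied. Rescalings were computed over all rows. Equal values made up at most 3.79% of rows between any arrays. On simulated data with 200 of 19933 genes changed, the fit found 68% of the 1.3-fold and 94% of the 1.5-fold changes and made 15 false calls. The number of arrays limits the precision. Figures were drawn with matplotlib 3.10.9.

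The members and all lists were chosen with earlier results of these data known. Every member may be named, with full values for called members and the uncalled member with the largest difference in each role group. Of each other list, up to 4 called genes with the largest differences are named, and of marker lists the called ones and the brightest. Alb stands for the hepatocyte list. Markers named as near background, Klf1, Hemgn, Epor and the genes said to be named after their values were seen fall outside this rule.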

Additional observations from a re-analysis of the deposited data

Results flagged for a closer look

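Within the 4 rescued arrays, 35 members and Hdac3 were checked for an array that stood apart from the others by more than Dixon's critical value of 0.829, which chance passes in about 1 of 20 groups. Cdkn2c alone had such an array, with rescued replicate 1 lowest at 6.61 and the nearest other rescued array at 6.86. Knockout replicate 2 had the same rounded value of 6.61, and the values 6.88 in knockout replicate 3 and in rescued replicates 2 and 3 were also equal at this rounding.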

How the results depend on the processing

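Cdk4 and Rrm2 were called lower under all 19 alternatives, and no called member changed sign under any. Against 3 members called higher as deposited, there were 0 after quantile normalization, median centring, cyclic loess, in the fit of all rows and at a threshold of 0.01, and 1 among genes above the median level, among genes above receptor background and with the replicate block. The median difference of the members, 0.04 as deposited, was -0.07 after median centring and -0.10 among the 19 members above the median level. Other G1 and E2F-RB regulators (4 called) numbered 2 after quantile normalization and cyclic loess, 1 above the median level, 1 at 0.01 and 7 at 0.1. DNA damage genes (1 called) numbered 2 after quantile normalization, cyclic loess and at 0.1, and 0 at 0.01. Growth signal genes (3 called) numbered 1 after quantile normalization and cyclic loess, with all rows and with the replicate block, and 0 at 0.01. Other replication genes (5 called) numbered 8 after median centring, 1 at 0.01 and 10 at 0.1. Other mitosis genes (6 called) numbered 1 above the median level, 2 above receptor background, 1 at 0.01 and 16 at 0.1. The p53 targets (2 called) numbered 6 after median centring, 1 at 0.01 and 5 at 0.1. All genes called numbered 2867, against 509 at 0.01 and 5528 at 0.1, and Hdac3 (-0.48) was not called at 0.01. Thresholds change the counts by construction, and so do the limits on level, which drop genes. Above the median level 19 of the 35 members and 12 of the 59 other mitosis genes were tested. Above receptor background 25 and 21 were tested. The causes of the other changes were not tested.

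With each array left out in turn, the number of genes called ranged from 897 to 3263 (897, 1721, 1200, 948 and 1331 without knockout replicates 1 and 2 and rescued replicates 2, 3 and 4), with 0 to 3 members higher and 2 to 3 lower, 1 to 8 other replication, 2 to 10 other mitosis, 2 to 8 other G1, 1 to 3 p53, 0 to 1 DNA damage and 1 to 3 growth signal genes. The member median ranged from 0.0098 to 0.095 and Hdac3 from -0.56 to -0.40. With knockout replicate 1 or 2 left out, or rescued replicate 2 or 3, 0 members were called higher.

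Uncalled members near 0 changed sign. After quantile normalization these were E2f1 (-0.023), Mcm3 (-0.070), Mcm4 (-0.010), Mcm6 (-0.047), Gmnn (-0.14), Aurka (-0.067) and Bub1 (-0.030). After cyclic loess they were the same 7, at -0.027, -0.074, -0.018, -0.051, -0.15, -0.068 and -0.030. After median centring they were Ccnd2 (-0.016), Cdk6 (-0.10), E2f1 (-0.075), Mcm3 (-0.042), Mcm4 (-0.012), Mcm6 (-0.027), Mcm7 (-0.024), Gmnn (-0.11), Pcna (-0.096), Aurka (-0.075) and Bub1 (-0.017). Pcna was at -0.43 with the mean of its probe sets and -0.0054 with the replicate block. With an array left out, ranges crossed 0 for Pcna (-0.0054 to 0.040), Tyms (-0.31 to 0.026), Aurka (-0.011 to 0.11), Bub1 (-0.0027 to 0.30), Cdk6 (-0.11 to 0.13), Cdkn2c (-0.12 to 0.0098), Mcm6 (-0.0021 to 0.17), Gmnn (-0.12 to 0.098) and Rrm1 (-0.18 to 0.018).

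Knockout and rescued arrays share replicate numbers 1 to 3. Deviations of same-numbered arrays correlated at 0.15, 0.0028 and 0.0053, so the numbers are not shown to pair the livers, and only knockout replicate 1 correlated best with its own number. The replicate block called 1 member higher and 3 lower. Dim signals limit the mitotic genes most, since 6 of 11 were near background.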

Other observations

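Pcna, Top2a and Cdkn1b each had a second probe set with exactly 1 symbol. That of Top2a averaged 3.18 in knockout and 3.04 in rescued livers, a difference of 0.14. That of Cdkn1b differed by 0.02. The second probe set of Pcna read 6.53, 8.96 and 9.81 in the knockout livers, against 9.30, 9.30, 9.61 and 9.01 in the rescued livers. The brighter Pcna probe set used above stayed between 9.25 and 9.39 on all 7 arrays. Knockout replicate 1 was far below the other arrays on the second probe set only.

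The growth-related factor gene Myc, named after its values were seen, was among the most variable genes of the G1 list. It was at 6.29, 7.66 and 7.29 in knockout livers, against 6.65, 6.23, 7.14 and 6.62 in rescued livers, and was not called (difference 0.42, adjusted p = 0.288 in limma's test). Mybl2, which encodes B-MYB, also named after its values were seen, averaged 7.18 in knockout livers and 6.93 in rescued livers and was not called.

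The same deposited value stood on at least 2 arrays for 7 of the 35 members. The median SD within a group was 0.13 in knockout and 0.11 in rescued livers for the members, and 0.11 and 0.092 for all genes.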
